A study of Homo sapiens with 6 samples.

Results

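The genes described here are the ZNF zinc finger genes that HCCLM3 cells expressed at a solid level: symbols made of ZNF, a number and at most 1 letter, with a mean of at least 10 CPM over the 3 DMSO libraries. CPM is a count scaled to a fixed library total, here by the sum of its column, and ZNF598 was left out. Of 509 such ZNF genes among the 20263 rows of the count table, 232 met this floor and all 232 passed the filter on low counts. Of the 277 under the floor, 176 passed the filter and 47 had no count in any library. HCCLM3 is a human hepatocellular carcinoma line of high metastatic capacity, and the study is about the action of CC-885 on it. Each group held 3 libraries, after 24 h with CC-885 or with its solvent DMSO, in DMEM with serum. CC-885 is a small molecule that binds cereblon (CRBN), the substrate receptor of a ubiquitin ligase, and makes the ligase mark proteins it would otherwise spare. No dose is stated in the sources used here, and the labels name no engineered allele in either group.

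Most ZNF proteins bind DNA through an array of C2H2 fingers, loops of protein folded around a zinc ion, and the number of fingers in the array sets how long a DNA sequence it can read. Many also carry a KRAB box, which recruits TRIM28 and, through it, the methyltransferase SETDB1 and HP1 proteins, and so silences transposable elements and other targets. Genes of this kind multiplied by local duplication and lie in clusters, above all on chromosome 19. Some C2H2 fingers are themselves the part that CRBN grips when it is bound by a drug of the thalidomide family.

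Total counts ran from 30432509 to 39809131 per library, and the TMM scaling factors from 0.967 to 1.06. The hepatic label had little support in the markers, since the hepatocyte and hepatoma genes AFP, ALB, APOB and TTR were at 0 in every library. Epithelial markers summed to 1370 to 1661 CPM with CC-885 and 1811 to 2217 CPM with DMSO. Nearly all of this was KRT8 and KRT18, while CDH1 (3.78 against 4.50 CPM) and EPCAM (3.64 against 3.46 CPM) were low in both groups. Of 4 leukocyte markers 3 (CD3E, LYZ and PTPRC) were at 0 throughout. Endothelial markers summed to 3.11 to 4.93 and 0.872 to 1.35 CPM, and fibroblast and stellate markers to 151 to 185 and 157 to 187 CPM, with CC-885 and DMSO respectively. Within the last list COL1A1 was higher (155 against 104 CPM), and PDGFRB (14.1 against 70.9 CPM) and DCN (0.126 against 1.21 CPM) were lower. The part of these marker shifts in the results below was not tested. Whether the 3 libraries of each group stem from different cultures is not in the labels, so the p-values may reflect technical spread alone.

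With CC-885, 103 of the 232 ZNF genes (44.4%) were higher and 28 (12.1%) were lower, while 101 were not called. A gene was called at an adjusted p below 0.05 in edgeR's quasi-likelihood test over all 13444 genes tested, of which 25.8% were higher and 26.8% lower. Among the 9804 tested genes with the same DMSO floor, 28.9% were higher and 24.3% lower. The median log2 fold change was 0.44 over the ZNF genes, with quartiles of 0.00 and 0.88, against -0.04 over all genes tested and 0.04 over those at the DMSO floor. The genes were selected on their DMSO level, which is one side of the comparison, so these counts and medians are a description and no test was made over them. In bulk RNA, fewer cells that express a gene and less RNA per cell cannot be told apart.

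Changes were moderate in size. By at least 2-fold, 45 of the ZNF genes were higher and 6 lower, where 8.23% of all genes tested were higher and 10.3% lower by that much (7.3% and 5.55% of those at the DMSO floor). All 103 higher genes had each CC-885 library above each DMSO library, and 26 of the 28 lower genes had each below (25.5% and 26.0% of all genes tested, and 28.5% and 23.4% of those at the DMSO floor, were called without overlap in these directions). The 2 exceptions, ZNF589 (log2 fold change -0.64) and ZNF185 (-0.42), are named after their values were seen. Summed over the ZNF genes, the TMM-normalised level was 9342, 9625 and 10308 CPM in the CC-885 libraries and 6772, 6902 and 7174 CPM in the DMSO libraries, so the groups did not overlap. With any single library left out, 95 to 107 were higher and 20 to 28 lower, and 92 of the higher and 18 of the lower genes were called every time.

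**Figure D1:**
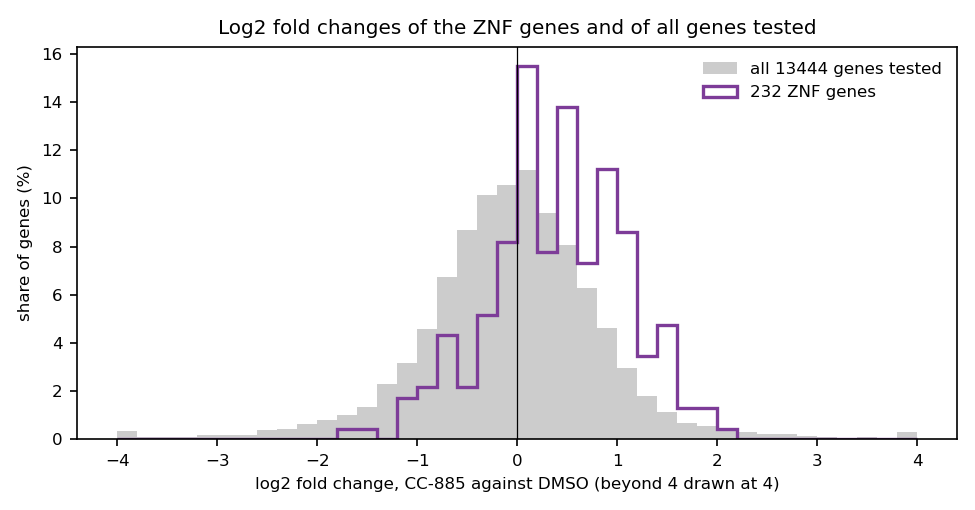
Distribution of log2 fold changes, CC-885 against DMSO (x axis, values beyond 4 drawn at 4), as the share of genes in percent (y axis), for the 232 ZNF genes (purple outline) and all 13444 genes tested (grey). The outline is shifted to the right of the grey, with medians of 0.44 and -0.04.

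The floor cut through a continuous range of levels. Just above it lay ZNF212 (10.0 CPM by column total over the DMSO libraries, log2 fold change 0.74), ZNF595 (10.1 CPM, 0.08) and ZNF888 (10.1 CPM, 1.13). Just below lay ZNF324 (9.96 CPM, 0.55), ZNF581 (9.90 CPM, 0.51) and ZNF430 (9.86 CPM, 1.58). ZNF324 reached -0.43 without CC-885 replicate 1, so that 1 library set its sign. Moving the floor changed the size of the shift and not the larger share of higher genes. With the floor of 10 CPM set on all 6 libraries, 127 of 259 were higher and 24 lower. Set on the CC-885 libraries, it gave 139 of 266 higher and 19 lower. Both of these floors admit genes partly for a high CC-885 level, which by itself favours higher genes, so they add no support. A floor of 20 CPM left 121 genes with 47 higher and 17 lower (median 0.26), a floor of 5 CPM gave 311 with 137 higher and 38 lower, and all 408 tested ZNF genes held 170 higher and 53 lower. Among the 176 tested genes under the floor, 67 were higher and 25 lower.

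ZNF45 (ENSG00000124459), a KRAB zinc finger gene on chromosome 19, rose most. On the TMM-normalised scale, used for all levels from here on, it stood at 45.9, 54.6 and 69.5 CPM in the CC-885 libraries and at 14.7, 10.5 and 12.5 CPM in the DMSO libraries. Each CC-885 library lay more than 3 times above the highest DMSO library. The means were 56.7 ± 12 and 12.6 ± 2.12 CPM (SD, n = 3), a 4.51-fold difference (log2 fold change 2.17, SE 0.18, edgeR adjusted p = 5.52e-06). Its neighbour ZNF283 (ENSG00000167637), also of the KRAB kind, had 42.5, 57.3 and 61.3 CPM with CC-885 and 13.1, 17.1 and 12.3 CPM with DMSO. The groups were again far apart, with a log2 fold change of 1.92 (SE 0.18, edgeR adjusted p = 1e-05).

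ZNF367 (ENSG00000165244), a factor with few fingers and no KRAB box, gave 141, 149 and 157 CPM with CC-885 and 35.8, 41.1 and 42.3 CPM with DMSO. Both groups were tight, and the log2 fold change was 1.91 (SE 0.13, edgeR adjusted p = 1.26e-06). ZNF217 (ENSG00000171940), an oncogene amplified in breast cancer that works with the CoREST corepressor, gave 134, 132 and 153 CPM against 42.1, 35.3 and 50.3 CPM. No libraries overlapped, and it rose by 1.72 on the log2 scale (SE 0.15, edgeR adjusted p = 6.83e-06). ZNF764 (ENSG00000169951), a KRAB gene of chromosome 16, had 33.0, 37.2 and 32.0 CPM against 9.95, 8.80 and 11.1 CPM, a log2 fold change of 1.78 (edgeR adjusted p = 4.43e-06). It shares exon bases with AC002310.4 on its own strand. ZNF10, described below, completes the 10 largest increases with the KRAB genes ZNF566 (log2 fold change 1.72), ZNF317 (1.57) and ZNF607 (1.54) and with ZNF654 (1.53).

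Among the lower genes ZNF76 (ENSG00000065029) fell most. This paralogue of ZNF143 is an activator of promoters of protein-coding and small RNA genes. It stood at 19.5, 16.2 and 16.6 CPM with CC-885 and at 57.2, 54.3 and 48.4 CPM with DMSO. The lowest DMSO library was more than 2 times above the highest CC-885 library, and the means of 17.4 ± 1.80 and 53.3 ± 4.49 CPM (SD, n = 3) differed 3.06-fold (log2 fold change -1.61, SE 0.14, edgeR adjusted p = 5.34e-06). ZNF143 itself, named for this kinship, had 18.6, 18 and 23.5 CPM against 17.2, 17.8 and 16.7 CPM. It was not called (0.21, edgeR adjusted p = 0.243).

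ZNF428 (ENSG00000131116), with a single finger pattern, had 12.5, 12.5 and 10.2 CPM against 31.7, 36.0 and 28.4 CPM, with no overlap (log2 fold change -1.45, edgeR adjusted p = 2.17e-05). It shares exon bases with SRRM5 on the opposite strand, and strand may not have been used in counting. ZNF488, known as a partner of OLIG2 in oligodendrocytes, had 8.39, 6.0 and 7.85 CPM against 18.1, 13.4 and 19.3 CPM (-1.19). ZNF117 had 5.96, 4.76 and 6.33 CPM against 7.57, 14.8 and 14.8 CPM (-1.12), so that DMSO replicate 1 lay close to the CC-885 libraries. ZNF117 overlaps ERV3-1 on the same strand. The other genes of the 10 largest decreases were ZNF771 (-1.09), ZNF362 (-1.09), ZNF891 (-0.99), ZNF785 (-0.99), ZNF514 (-0.90) and ZNF688 (-0.87). ZNF891, ZNF785, ZNF514 and ZNF688 carry a KRAB box. ZNF514 overlaps MRPS5 on the same strand, and ZNF771, ZNF785, ZNF688 and ZNF891 each overlap a gene on the opposite strand.

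**Figure D2:**
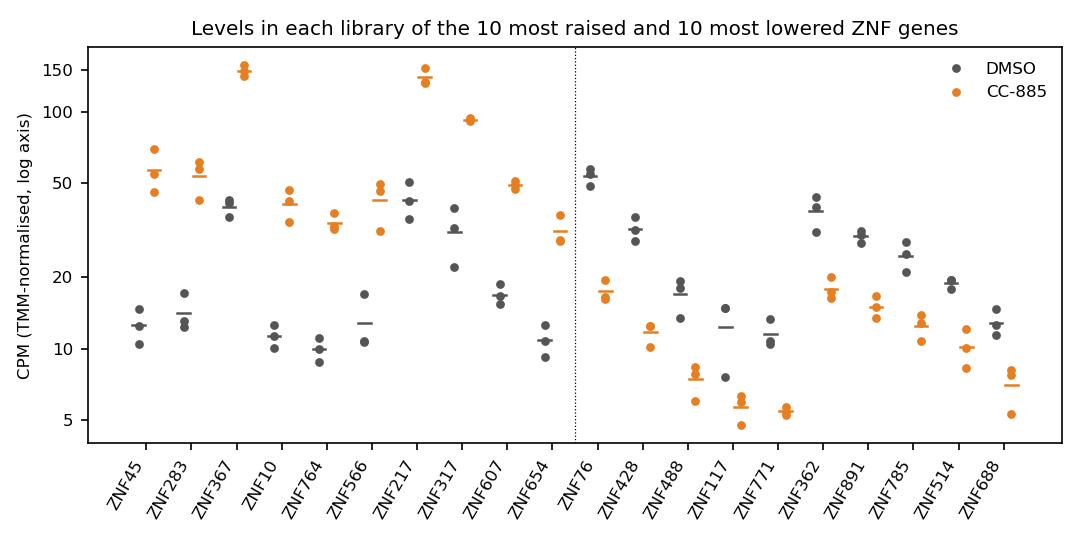
TMM-normalised CPM (y axis, log scale) in each library for the 10 ZNF genes with the largest increase (left of the dotted line) and the 10 with the largest decrease (right), with DMSO in grey and CC-885 in orange. Points are single libraries and bars the mean of 3, and in no gene do the groups overlap, ZNF117 having the smallest gap (6.33 against 7.57 CPM).

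Of the 5 most abundant ZNF genes 3 were higher and the other two were not called. ZNF664 (ENSG00000179195) had the highest DMSO mean and stood at 358, 362 and 424 CPM with CC-885 and 362, 388 and 400.0 CPM with DMSO. The groups overlapped almost fully, at 381 ± 36.8 and 383 ± 19.6 CPM (log2 fold change -0.01, SE 0.14, edgeR adjusted p = 0.973). ZNF740 was likewise not called, at 102 ± 8.37 and 115 ± 10.2 CPM (-0.17, edgeR adjusted p = 0.289). ZNF496, a KRAB and SCAN gene whose protein binds the histone methyltransferase NSD1, was higher, with 208, 209 and 185 CPM against 114, 99.2 and 113 CPM (0.88, edgeR adjusted p = 0.000193). Per kilobase of the longest annotated coding transcript the DMSO level was highest for ZNF622 (78.3 CPM per kb) and ZNF664 (75 CPM per kb) among these 5. ZNF496 (20.4), ZNF207 (18.8) and ZNF740 (13.4) followed.

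ZNF622 and ZNF207, the remaining abundant genes, belong to a list of ZNF proteins known for work on RNA, ribosomes or the spindle. Of its 10 genes 4 (40%) were higher and 1 (10%) lower, and the median log2 fold change was 0.39. Over all ZNF genes the shares were 44.4% and 12.1%, and over all genes tested at the DMSO floor 28.9% and 24.3%. ZNF622 (ENSG00000173545), a maturation factor of the large ribosomal subunit, had 243, 299 and 258 CPM with CC-885 and 128, 139 and 133 CPM with DMSO. The groups stood well apart (log2 fold change 1.0, SE 0.13, edgeR adjusted p = 0.000106). ZNF326, which joins RNA polymerase II elongation to splicing, had 83.5, 91.7 and 111 CPM against 44.6, 53.0 and 55.0 CPM (0.91, edgeR adjusted p = 0.000365). ZNF207, a spindle protein that binds the checkpoint factor BUB3, had 341, 391 and 395 CPM against 228, 280 and 271 CPM (0.53, edgeR adjusted p = 0.00805), a call lost without DMSO replicate 1 (0.45, adjusted p = 0.0514). ZNF330, a nucleolar protein, was also higher (0.51). The lower gene was ZNF385A, an RNA-binding partner of p53, with 22.5, 17.4 and 22.4 CPM against 34.2, 24.5 and 40.1 CPM. DMSO replicate 2 lay nearest the CC-885 libraries there, and the gene passed (-0.66, edgeR adjusted p = 0.0114) only while CC-885 replicate 2 was included (-0.54, adjusted p = 0.0522 without it).

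Of 8 listed ZNF genes for subunits or partners of chromatin complexes, 5 (62.5%) were higher and 1 (12.5%) lower, and the median log2 fold change was 1.11. Over all ZNF genes the shares were 44.4% and 12.1%, and over all genes tested at the DMSO floor 28.9% and 24.3%. The list was chosen with earlier results of these data known, so the count is a description. Besides ZNF217 the higher genes were ZNF592 and ZNF687, which act together with the reader ZMYND8, ZNF644, a partner of the G9a and GLP methyltransferases, and the SUMO ligase ZNF451. ZNF592 had 104, 121 and 112 CPM with CC-885 and 46.1, 41.0 and 54.9 CPM with DMSO, so each CC-885 library was well above each DMSO library (1.24, edgeR adjusted p = 3.64e-05). The log2 fold changes of ZNF644 (1.2), ZNF451 (1.19) and ZNF687 (1.04) were close to it. ZNF512B went the other way by a small margin, at 55.2, 57.6 and 51.3 CPM against 70.8, 65.3 and 67.9 CPM (-0.31, edgeR adjusted p = 0.0408). That call held without DMSO replicate 2 and was lost without any other library: CC-885 replicate 1 (adjusted p = 0.11), 2 (0.0922) or 3 (0.123), and DMSO replicate 1 (0.14) or 3 (0.0679).

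Of 8 ZNF genes known to bind promoters, 3 (37.5%) were higher and 1 (12.5%), ZNF76, was lower (median 0.47). Over all ZNF genes the shares were 44.4% and 12.1%, and over all genes tested at the DMSO floor 28.9% and 24.3%. ZNF148, which binds GC-rich promoters, had 46.3, 44.3 and 54.5 CPM against 26.4, 26.5 and 25.9 CPM, without overlap (0.88, edgeR adjusted p = 0.000214). ZNF263 (0.86), a KRAB and SCAN gene, and ZNF384 (0.72) were the others. ZNF263 overlaps LINC00921 on its own strand.

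CRBN grips certain C2H2 fingers in the presence of thalidomide-type drugs, and 3 ZNF genes listed for such a finger met the floor. ZNF276 had 72.1, 71.2 and 62.2 CPM with CC-885 and 54.5, 54.0 and 54.5 CPM with DMSO. The groups did not overlap, yet the difference was small (log2 fold change 0.33, SE 0.12, edgeR adjusted p = 0.0333). It fell short of the threshold without CC-885 replicate 1 (adjusted p = 0.117) or 2 (0.126) and without DMSO replicate 1 (0.0886) or 3 (0.0608). ZNF787 had 61.8, 61.7 and 53.4 CPM against 49.1, 48.6 and 46.4 CPM and was not called (0.30, edgeR adjusted p = 0.0584), although it passed without CC-885 replicate 3 (0.37, adjusted p = 0.0386) or DMSO replicate 2 (0.31, adjusted p = 0.0400). ZNF692 overlapped fully, at 39.3, 36.4 and 37.1 CPM against 40.2, 32.7 and 39.5 CPM (0.01, edgeR adjusted p = 0.975). The other genes of this list lie under the floor. ZNF653 had 9.17 ± 1.44 and 5.08 ± 0.650 CPM (0.85, edgeR adjusted p = 0.00213), and ZNF827 had 3.73 ± 0.857 and 1.51 ± 0.427 CPM (1.31, edgeR adjusted p = 0.00169). These are levels of mRNA and say nothing of the proteins that CRBN would mark.

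A KRAB box was found in the translated protein of 128 of the ZNF genes, of which 61 were higher and 10 lower (median log2 fold change 0.53). Among the 104 without one, 42 were higher and 18 lower, with a median of 0.27. All the same, both kinds held more higher than lower genes. With GC and length offsets the order of the shares turned, with 59 of 128 (46.1%) higher with and 49 of 104 (47.1%) without a KRAB box. The medians came closer, at 0.38 and 0.29. With these offsets 34.3% of all genes tested at the DMSO floor were higher and 25.9% lower. In the fit without offsets, the medians were close away from chromosome 19. There 24 of 66 KRAB genes were higher and 8 lower (median 0.24), and 34 of 88 others were higher and 15 lower (median 0.21). On chromosome 19, 37 of 62 KRAB genes were higher and 2 lower (median 0.61), and 8 of 16 others were higher and 3 lower (median 0.43). A SCAN box, which pairs such proteins with each other, was found in 15, with 6 higher and 2 lower. The 9 with both boxes had 6 higher and 0 lower. ZNF394, with both, had 34.9, 40.8 and 37.7 CPM with CC-885 against 12.9, 13.1 and 13.4 CPM with DMSO (1.53, edgeR adjusted p = 5.97e-06). ZNF274, also with both, is known to bring SETDB1 to the 3′ ends of other ZNF genes. It had 36.6, 44.3 and 39.8 CPM against 17.7, 16 and 19.3 CPM (1.19, edgeR adjusted p = 4.6e-05). The lower SCAN genes were ZNF397 (-0.76) and ZNF174 (-0.61), which lack a KRAB box.

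The median difference was larger in bins of more fingers, mostly among the genes without a KRAB box. Proteins with 0 to 3 finger patterns (31 genes) had 8 higher and 8 lower and a median log2 fold change of 0.01. Those with 4 to 9 (92 genes) had 39 higher and 13 lower (median 0.31), and those with 10 to 14 (64 genes) had 31 higher and 6 lower (median 0.53). Of the 45 with 15 or more, 25 were higher and 1, ZNF337 (-0.33), was lower (median 0.61). Over the 232 genes Spearman's rho between finger number and log2 fold change was 0.26, a description only, since the genes share libraries and many share sequence. Without a KRAB box the medians over the same bins were 0.01, 0.21, 0.75 and 0.75. Among KRAB genes, of which 2 had fewer than 4 fingers, the medians of the other bins lay close together at 0.43, 0.53 and 0.59, with 23 of 49, 19 of 42 and 18 of 35 genes higher. The GC content of the transcripts fell across the bins of all ZNF genes, with medians of 51.4, 46.1, 43.4 and 42.1%. Among the genes without a KRAB box it did not fall throughout, with medians of 51.4, 48.0, 49.8 and 57.5%. When the fit was given GC and length offsets, the bins had medians of -0.05, 0.34, 0.43 and 0.46. The KRAB genes in the upper 3 bins then had 0.37, 0.37 and 0.42. Genes without a KRAB box had -0.05, 0.23, 0.70 and 0.73 over the bins with these offsets.

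**Figure D3:**
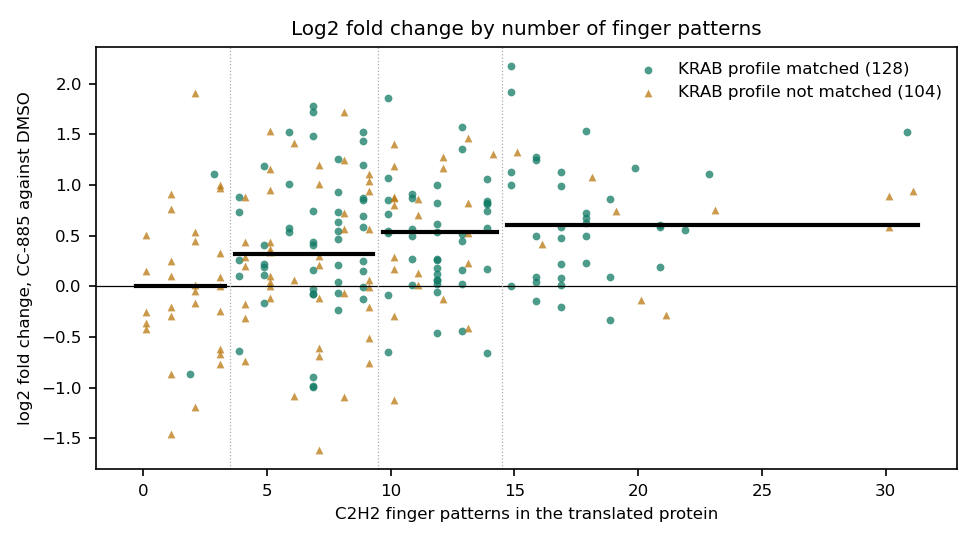
Log2 fold change of each ZNF gene, CC-885 against DMSO (y axis), by the number of C2H2 finger patterns in its translated protein (x axis), for genes with a KRAB box (green circles) and without (brown triangles). Black bars are the medians of the bins between dotted lines, 0.01, 0.31, 0.53 and 0.61 from left to right.

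The silencing machinery that KRAB boxes recruit did not shift in a common direction. Of 17 genes of this corepressor list, 2 (11.8%) were higher and 4 (23.5%) lower, and the median was 0.09. Among all genes tested at the DMSO floor, 28.9% were higher and 24.3% lower, so the lower share was near that of all genes. TRIM28 had 300 ± 39.6 and 271 ± 47.6 CPM and was not called (0.14, edgeR adjusted p = 0.489). SETDB1 had 71.0 ± 1.35 and 56.2 ± 9.03 CPM (0.34, edgeR adjusted p = 0.0591), and passed without DMSO replicate 3 (0.45, adjusted p = 0.0152). CBX5, which encodes HP1 alpha, fell from 580 ± 31.5 to 211 ± 22.4 CPM (-1.46, edgeR adjusted p = 1.35e-05), and the deacetylase gene HDAC1 from 216 ± 13.7 to 119 ± 6.15 CPM (-0.86, edgeR adjusted p = 0.000202). CHD3 (-0.50) and CBX3 (-0.35), named after their values were seen, were the other lower genes. The higher ones were MORC3 (0.73, edgeR adjusted p = 0.00262) and DNMT1 (0.64, edgeR adjusted p = 0.0412). Without CC-885 replicate 1, 2 or 3 or without DMSO replicate 1, a single gene of the list was called higher, since DNMT1 lost its call (adjusted p = 0.0766, 0.0997, 0.0697 and 0.0711), and 2 were called lower.

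Position on the genome went with direction too. Of the 78 ZNF genes on chromosome 19, 45 were higher and 5 lower (median 0.59), and of the 154 elsewhere 58 were higher and 23 lower (median 0.22). This also held for the KRAB genes alone: 37 of 62 on chromosome 19 were higher and 2 lower (median 0.61), against 24 of 66 higher and 8 lower elsewhere (median 0.24). With GC and length offsets the medians were 0.46 on chromosome 19 and 0.22 elsewhere. ZNF genes, those under the floor included, were joined into stretches at gaps of at most 500 kb, a grouping chosen after the values were seen. In all, 14 stretches held at least 4 genes that met the floor, with 107 such genes among them. On chromosome 19 lie 7 of the stretches. Genes of both directions occurred in 7 stretches, higher genes alone in 6 and a lower gene alone in 1.

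On chromosome 19 the stretch from ZNF146 to ZNF607 had 6 of 7 higher and none lower. Its median of 1.47 was the value of ZNF260, a gene whose SE was over 0.4. The stretch from ZNF101 to ZNF254 had 7 of 9 higher and none lower (median 0.84). In the latter ZNF91, whose protein is known to silence SVA transposable elements, had 70.5, 79.9 and 90.6 CPM against 23.9, 30.7 and 29.3 CPM (1.52, edgeR adjusted p = 1.24e-05). From ZNF614 to ZNF331, 10 of 16 were higher and ZNF83 (-0.66) was lower. Other stretches were mixed. On chromosome 16 from ZNF48 to ZNF646, 5 of 11 were higher and 3 lower, and ZNF764 (1.78) lay beside ZNF688 (-0.87) and ZNF785 (-0.99). From ZNF576 to ZNF180 on chromosome 19, ZNF428 (-1.45) lay beside ZNF283 (1.92) and ZNF45 (2.17). The genes named here beyond the largest changes were picked after their values were seen.

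**Figure D4:**
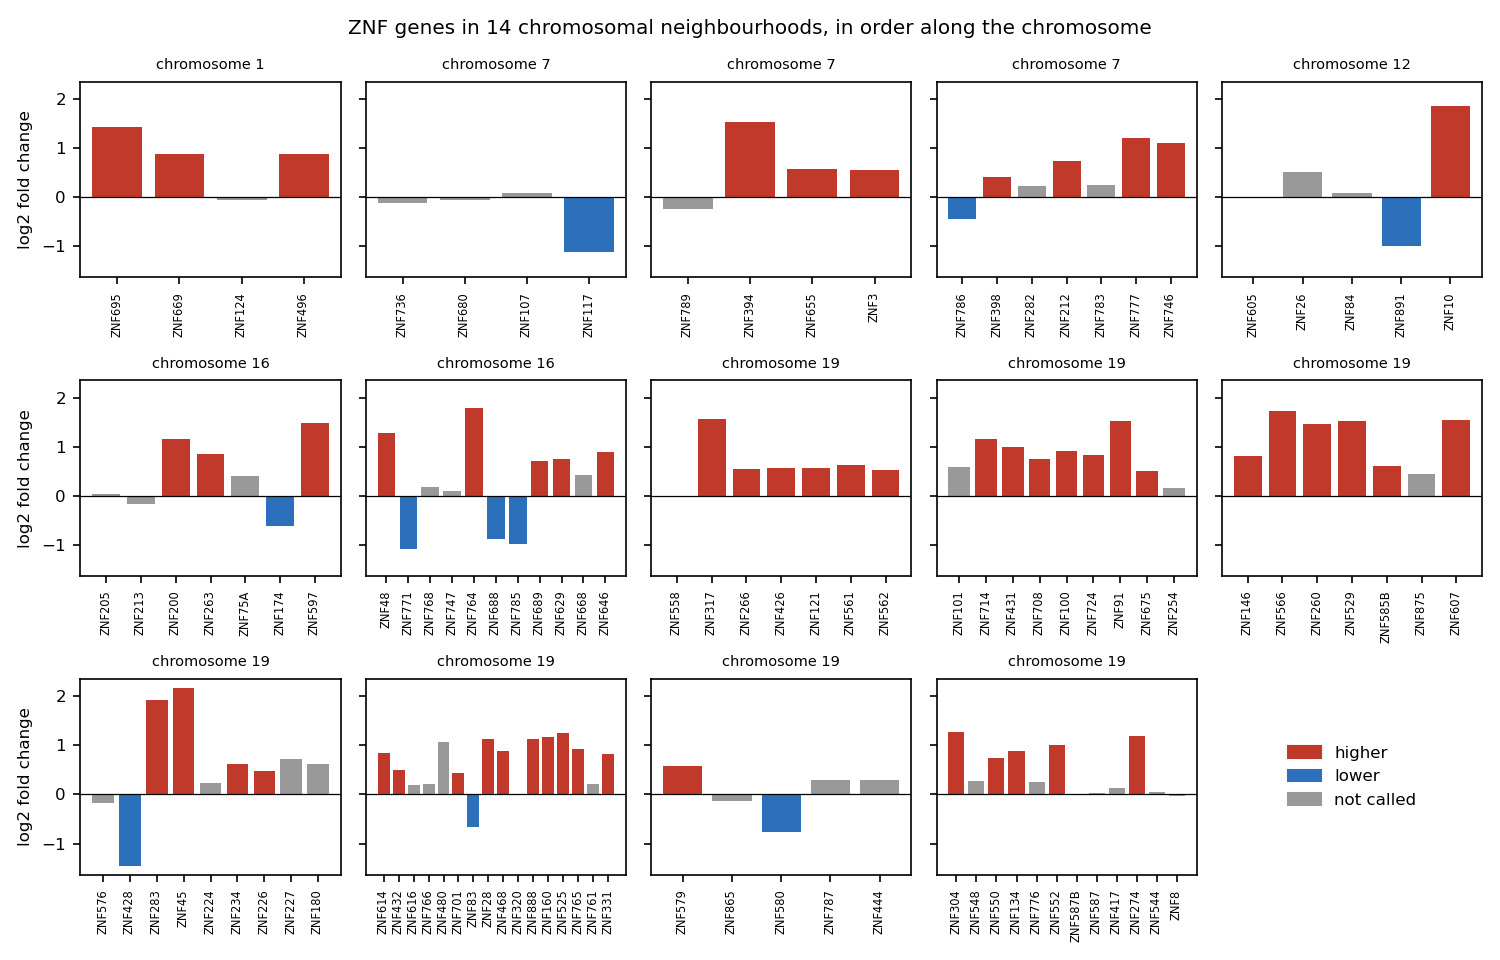
Log2 fold change, CC-885 against DMSO (y axis), of ZNF genes in 14 stretches with at least 4 of them, in their order along each chromosome (x axis, not to scale), with called higher in red, called lower in blue and not called in grey. Stretches with higher genes alone, such as ZNF146 to ZNF607, occur beside mixed ones such as ZNF48 to ZNF646.

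ZNF10 and ZNF891 on chromosome 12 also went in opposite directions, and they start 353 bases apart pointing away from each other. ZNF10 (ENSG00000256223) encodes the protein whose KRAB box is widely used as a repressor in CRISPR interference. It had 34.2, 42.1 and 46.7 CPM with CC-885 and 10.1, 12.5 and 11.4 CPM with DMSO, with a wide gap between the groups (log2 fold change 1.86, SE 0.16, edgeR adjusted p = 5.64e-06). ZNF891 (ENSG00000214029), also a KRAB gene, had 15, 13.4 and 16.6 CPM against 30.05, 31.5 and 28.0 CPM, a narrower gap without overlap in the opposite direction (-0.99, SE 0.14, edgeR adjusted p = 0.000156). Their promoter windows (250 bases before to 50 after the start, RefSeq, GRCh38.p14) share 148 bases and are printed 5′ to 3′ on each gene's own strand, to show how close together genes of opposite direction start; the shared bases hold neither start. Capitals mark TGACGTCA, the cAMP response element (CRE) bound by factors of the CREB and ATF family.
ZNF10 (chr12:133130377-133130676, plus strand): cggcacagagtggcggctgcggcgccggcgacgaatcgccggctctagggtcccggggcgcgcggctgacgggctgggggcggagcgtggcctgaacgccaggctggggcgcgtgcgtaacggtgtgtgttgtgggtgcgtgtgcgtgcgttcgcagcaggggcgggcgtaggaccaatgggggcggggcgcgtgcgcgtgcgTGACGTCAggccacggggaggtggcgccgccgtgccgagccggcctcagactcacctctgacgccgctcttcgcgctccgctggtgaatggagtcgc
ZNF891 (chr12:133130225-133130524, minus strand): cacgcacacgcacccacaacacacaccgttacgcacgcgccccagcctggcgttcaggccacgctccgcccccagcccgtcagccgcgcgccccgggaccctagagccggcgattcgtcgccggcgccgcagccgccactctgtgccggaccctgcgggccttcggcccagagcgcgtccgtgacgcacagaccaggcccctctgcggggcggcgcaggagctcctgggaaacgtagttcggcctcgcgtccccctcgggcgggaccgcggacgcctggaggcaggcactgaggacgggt
The CRE pattern lies 39 bases before the ZNF10 start, outside the shared bases, and the ZNF891 window does not hold these letters. ZNF10 overlaps AC026786.1 on the same strand and ZNF891 overlaps ZNF140 on the opposite strand. The only other pair with overlapping windows was ZNF646 (0.89, edgeR adjusted p = 0.000166) and ZNF668 (0.42, edgeR adjusted p = 0.0935), whose starts are 182 bases apart.

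RefSeq promoter windows were at hand for 203 of the ZNF genes, 277 windows in all since a gene can have several starts. The CRE pattern stood in 5.05% of them, in 2.74% of the windows of all genes tested and in 1.85% of all 35116 windows. The 13 ZNF genes that hold it had 9 higher, 0 lower and 4 not called, where 92 of the 203 genes with a window were higher and 20 lower. A run of 5 of them lies in the stretch from ZNF558 to ZNF562 on chromosome 19, and all 5 were higher: ZNF266 (log2 fold change 0.54), ZNF426 (0.57), ZNF121 (0.57), ZNF561 (0.63) and ZNF562 (0.53). Their sequences around the pattern are printed for comparison, 100 bases each on the gene's own strand (RefSeq, GRCh38.p14), with the pattern in capitals.
ZNF266 (chr19:9435537-9435636, minus strand): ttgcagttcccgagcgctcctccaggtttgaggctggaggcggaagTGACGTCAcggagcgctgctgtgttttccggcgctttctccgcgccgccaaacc
ZNF426 (chr19:9538613-9538712, minus strand): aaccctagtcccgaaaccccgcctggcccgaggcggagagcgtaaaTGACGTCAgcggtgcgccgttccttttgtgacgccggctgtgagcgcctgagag
ZNF121 (chr19:9584501-9584600, minus strand): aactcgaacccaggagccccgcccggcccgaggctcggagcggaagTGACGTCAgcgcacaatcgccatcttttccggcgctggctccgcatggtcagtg
ZNF561 (chr19:9621202-9621301, minus strand): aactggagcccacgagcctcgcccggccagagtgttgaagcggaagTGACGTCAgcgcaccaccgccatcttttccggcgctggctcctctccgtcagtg
ZNF562 (chr19:9675054-9675153, minus strand): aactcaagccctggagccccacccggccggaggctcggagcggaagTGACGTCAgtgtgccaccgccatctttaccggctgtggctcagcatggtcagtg
Over the 10 pairs of these sequences, 44 to 86% of the bases were identical at the same position, the most between ZNF121 and ZNF562, and ZNF121, ZNF561 and ZNF562 were 78 to 86% identical, so these 3 are related copies. ZNF266 was 44 to 47% identical with the others over bases that include the shared pattern. In the same stretch ZNF317 and ZNF558 lack the pattern in their windows. ZNF317 rose by 1.57, with 91.1, 93.7 and 92.2 CPM against 32.3, 22.1 and 39.1 CPM, while ZNF558 had 9.76 to 10.8 CPM against 8.53 to 12.2 CPM (0.00, edgeR adjusted p = 0.986). The other higher genes with the pattern were ZNF10, ZNF200 (1.16), ZNF335 (0.82) and ZNF330 (0.51), named here because they hold it.

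In all, 13 patterns were searched on both strands, without regard to overlaps between them. The ETS pattern CCGGAAGT stood in 16.2% of the ZNF gene windows, 7.11% of the windows of tested genes and 4.14% of all windows. It was in 23 of the 125 windows of higher ZNF genes (18.4%) and in 2 of the 28 windows of lower ones (7.14%). Some patterns leaned the other way. AP-1 stood in 7 of these 125 windows (5.6%) and 4 of the 28 (14.3%), against 5.40% of the windows of tested genes. ZNF143 stood in 4 (3.2%) and 3 (10.7%), against 2.12%. YY1 (10 and 0 windows), CRE (9 and 0), E2F (6 and 0) and the E-box (6 and 0) leaned as ETS did. The 125 windows came from 92 genes and the 28 from 20, so a gene can count more than once. Patterns of factors induced by signals or stress were AP-1 (TGANTCA), EGR (GCGNGGGCG) and the CARE pattern of ATF4 (TGATGNAA). Those of factors of housekeeping promoters were NRF1 (GCGCANGCG), YY1 (AAGATGGC), ZNF143 (ACTACAANT), SP (GGGGCGGGG) and CCAAT. The remaining patterns were E2F (TTTNGCGC), the E-box CACGTG and the TATA box (TATAAA). ATF4's CARE pattern stood in 1.08% of the ZNF gene windows, against 2.11% of the windows of tested genes. It was in none of the 125 windows of higher genes and in none of the 28 windows of lower ones. These matches describe letters in a window and not bound sites.

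Some ZNF genes varied so widely between libraries of a group that, with ZNF260 as the exception, their direction could not be read. The SE of the log2 fold change was over 0.4 in 13 genes, named after their values were seen, against a median SE of 0.15. ZNF791 had 8.09, 42.6 and 10.4 CPM with CC-885 and 5.87, 6.89 and 28.2 CPM with DMSO. ZNF24, which binds promoters, had 25.4, 33.0 and 93.2 CPM against 48.1, 69.5 and 14.5 CPM, and ZNF302 had 8.56, 35.2 and 39.2 CPM against 38.7, 10.2 and 38.9 CPM. In each of these a single library of a group lay several times above or below the others, and which library it was differed between genes. ZNF281, a promoter-binding factor of stem cells, fell into the same kind, with 119, 29.9 and 137 CPM against 43.9, 46.6 and 55.8 CPM (0.97, edgeR adjusted p = 0.245). Only ZNF260 of the 13 was called (1.47, edgeR adjusted p = 0.0317), the others being ZNF480, ZNF184, ZNF182, ZNF227, ZNF672, ZNF766, ZNF84 and ZNF41.

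Copies of one another can lend reads to each other. The median ZNF gene shared 1.95% of its 50-base stretches with the annotated transcripts of another gene, 55 shared over 10% and 8 over 50%. Exon bases were shared with another gene on the same strand in 62 and on the opposite strand in 82, and in 125 on either. Counts of these are less certain, since how the authors treated shared reads and strand is unknown here. Of the genes named above, ZNF607, ZNF664, ZNF207 and ZNF174 share exon bases with a gene on the same strand, and ZNF217, ZNF566, ZNF654, ZNF276, ZNF687, ZNF451 and ZNF397 with one on the opposite strand. ZNF45, ZNF367 and ZNF76, among the largest changes, shared no 50-base stretch and no exon base with another gene.

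ZNF genes were set beside other C2H2 families at the same DMSO floor. Of 35 ZBTB genes 11 (31.4%) were higher and 4 (11.4%) lower (median 0.17). Of 20 ZFP, ZSCAN and ZKSCAN genes 12 were higher and 3 lower (median 0.51). Among all genes tested at this floor, 28.9% were higher and 24.3% lower. The higher share of the ZBTB genes was thus near that of all genes, and their lower share was smaller. The higher share was larger in the ZNF genes (44.4%) and in the ZFP, ZSCAN and ZKSCAN genes. No difference between the families was tested.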

How the data were processed

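Gene expression was measured by RNA-seq in 6 libraries of HCCLM3 cells. Values as deposited by the authors are raw counts of each gene in each library, judged from the table's header and its whole numbers. Aligner, counter, annotation, strand setting and unit counted (read or fragment) are not given in any of the sources used here. Mouse builds (GRCm38, mm10) appear in the submitters' processing notes, although the row identifiers are human. Of counts between 1 and 9, 68.7% were even, so totals may exceed the number of fragments.

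Symbols came from a table of gene names (19761 rows) or GENCODE 29 (463), and 39 rows had none. The fit used edgeR 4.0.16 in R 4.3.3 on all rows: TMM factors, filterByExpr (minimum count 10), robust quasi-likelihood F test between the groups, no covariate, Benjamini-Hochberg adjustment over 13444 genes. The SE, an approximation, divides the size of the log2 fold change by the root of F. The script was tested on simulated data, with 64 to 66 of 13325 genes changed at each fold, far fewer than were called here. It called 26.6% of the 1.5-fold, 89.4% of the 2-fold and 100% of the 4-fold changes, and 5.37% of its calls were false. A gene not called can thus have changed by a small amount. Finger patterns (2 cysteines and 2 histidines at the usual C2H2 spacing) and KRAB and SCAN profile matches (HMMER 3.4, E-value of at most 0.001) were read from GENCODE 29 coding sequences translated for each gene, and promoters are from RefSeq. Shared 50-base stretches and exon overlaps also use GENCODE 29.

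The ZNF genes and the gene lists were chosen with earlier results of these data known. Genes named are the 10 largest non-overlapping changes in each direction, the 5 most abundant, listed CRBN-binding fingers, those beside the floor, and up to 2 a direction with the smallest p or those against the trend in each list or class. Others are marked. The summed level of the hepatocyte list is not reported here. Alternatives were other scalings, filters, DESeq2 1.42.0, limma-voom (limma 3.58.1), a replicate block, GC and length offsets, other floors, and leaving out each library. Counts for the corepressor list, sequence classes and non-member genes under these were added after seeing the data.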

Additional observations from a re-analysis of the deposited data

How the results depend on the processing

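The larger share of higher than lower ZNF genes held under each alternative run. Under GC and length offsets 108 (46.6%) were higher and 29 (12.5%) lower, against 34.3% and 25.9% of all genes tested at the DMSO floor. Floors that use the CC-885 levels favour higher genes by design, so those runs add no support. The median log2 fold change was 0.37 with GC and length offsets, 0.54 and 0.58 with the floor set on all 6 or on the CC-885 libraries, and 0.26 with a floor of 20 CPM. That floor gave 47 higher and 17 lower, and all tested ZNF genes 170 higher and 53 lower. In the corepressor list 1 gene was higher with the CPM filter of 5 and 4 with GC and length offsets. With single libraries left out that list had 1 to 3 higher and 2 to 4 lower, and the median over the ZNF genes was 0.37 to 0.47. TRIM28 (0.36, adjusted p = 0.022) and ZNF787 (0.79, adjusted p = 0.000115) passed with the offsets, while ZNF385A (adjusted p = 0.0822) and ZNF512B (0.0598) did not. ZNF276 missed the threshold with library size only (0.0681) or the CPM filter of 5 (0.0759), DNMT1 with that filter (0.058), and ZNF512B with no filter (0.0662) or the DESeq2 test (0.0586). ZNF787 passed with DESeq2 size factors (0.0472) and SETDB1 with the offsets (0.0123).

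Over 741 values of 53 named genes, 14 changed sign, all of genes not called. ZNF664 was 0.0088 with DESeq2 size factors, 0.0067 with no filter and 0.0088 with the DESeq2 test, and -0.083 to 0.043 without single libraries. ZNF692 was -0.052 with library size only, -0.060 with the CPM filter of 5 and -0.073 to 0.064 without single libraries. ZNF595 was -0.026 with the offsets and -0.0037 to 0.16 without single libraries. ZNF324 was -0.43 without CC-885 replicate 1 and up to 0.88 without other single libraries. Lost calls without single libraries stand beside their genes. ZNF581 also lost its call without CC-885 replicate 2 (adjusted p = 0.0536).

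The deviations of same-numbered libraries had small positive correlations (0.096, 0.031 and 0.072). Between libraries of unlike number the correlations ran from -0.132 to 0.0373. These values do not settle whether the libraries were paired. With the replicate number as a block, 109 were higher and 28 lower, with a median of 0.42, and SETDB1 passed (adjusted p = 0.0426).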
